A study of Mus musculus with 12 samples.

Results

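YAP1-TFE3 tumours were compared with YAP1-FAM118B tumours across all genes measured, as the pair of fusion tumours that share YAP1 and differ in its partner. Members were the 6 libraries that the labels assign to these constructs, 3 of each, out of 12 in the series, and every gene of those libraries. The study raised brain tumours in mice by injecting virus that carries a fusion gene in an RCAS vector, a retroviral vector of avian origin, into the brain, and sequenced total RNA of frozen tumour tissue. The other 6 libraries, 3 of YAP1-MAMLD1-dR3R1 tumours and 3 of naive tissue from normal cortex, entered the fit and serve as background. The genotype of a group is given only as its RCAS construct. No strain, age, sex, host receptor or promoter is stated, nor whether replicates came from separate animals. The p-values thus measure the spread between these samples. Sex markers given below set YAP1-FAM118B replicates 1 and 3 apart as different animals, while elsewhere that spread may be technical. The labels describe the tumours as snap frozen, while their extraction text speaks of cultured cells. They also call every sample a brain tumour, the naive cortex included.

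YAP1 is a coactivator that the Hippo kinases keep out of the nucleus and that reaches DNA through the TEAD factors. TFE3 is a basic helix-loop-helix leucine zipper factor of the MiT/TFE family, with TFEB, TFEC and MITF. The family is known for turning on lysosome and autophagy genes through E-boxes in their promoters, for its cytoplasmic retention by mTORC1, the Rag GTPases and folliculin, and, in the case of MITF, for the pigment genes of melanocytes. FAM118B is a nuclear protein of little known function. In people YAP1-TFE3 is known from epithelioid haemangioendothelioma and YAP1-FAM118B from supratentorial ependymoma.

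The 6 libraries held 21017343 to 24611949 counts, within the 19850220 to 24760814 of all 12, so a library's limit for a count of 0 lay between 0.123 and 0.145 CPM, the count scaled to library size. Pearson correlations of log2 CPM across genes were 0.911 to 0.940 within YAP1-TFE3 tumours and 0.933 to 0.974 within YAP1-FAM118B tumours, against 0.727 to 0.842 between them. YAP1-TFE3 tumours correlated with naive cortex at 0.586 to 0.737, and YAP1-FAM118B tumours at 0.812 to 0.909. The sexes were not matched. Xist, the RNA of the inactive X, had 0.434, 0.177 and 0 CPM in YAP1-TFE3 tumours, against 320.0, 162 and 0 CPM in YAP1-FAM118B tumours. The Y-linked Ddx3y had 69.8, 68.9 and 87.8 CPM in YAP1-TFE3 tumours, against 0, 29.9 and 81.6 CPM in YAP1-FAM118B tumours. YAP1-FAM118B replicate 2 thus held both, and replicates 1 and 3 of that group held markers of opposite sex. Values are given in the order of replicates 1, 2 and 3 throughout, as CPM scaled by TMM factors, and each log2 fold change is YAP1-TFE3 over YAP1-FAM118B, with its standard error from edgeR's quasi-likelihood fit.

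Over all genes, 4582 of 16364 tested were higher in YAP1-TFE3 tumours (28%) and 3878 were lower (23.7%) at a Benjamini-Hochberg adjusted p of 0.05. These 2 percentages are the background against which every gene group below is to be read. The groups did not overlap for 9551 genes, or 58.4% of those tested. In all 8460 genes (51.7%) were called. The 3703 genes called lower without overlap made up 22.6%. At least an 8-fold difference was seen for 464 genes higher (2.84%) and 1306 genes lower (7.98%). Set against the means of naive cortex, 2937 of the higher genes lay above naive in both tumours and 1581 only in YAP1-TFE3 tumours. Of the lower genes, 3057 lay below naive in both tumours, 534 lay below it in YAP1-TFE3 tumours only, and 287 lay at or above it in both. The split between directions moved with the scaling. Higher genes made up 54.2% of those called under the main scaling, 41.3% when only library size was used and 37.7% when naive replicate 1 was the reference library of the TMM scaling. That last choice shifted the log2 fold change of all genes by a median of -0.27, and library size alone by -0.22, so differences smaller than this have no settled direction. Where no member of a gene list described below was called in a direction in edgeR, 0 members passed in that direction at an unadjusted p of 0.05 and 0 in DESeq2, except 1 gene by both for pericytes (Higd1b), homeostatic microglia (Sall1) and T cells (Lck), and 1 in DESeq2 for choroid plexus (Slc4a5), all higher.

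The tumours also differed in how much brain tissue RNA they held. Over 40 synaptic and neuron genes the mean log2 CPM was 1.84, 5.27 and 2.28 in YAP1-TFE3 tumours, 7.62, 8.02 and 7.36 in YAP1-FAM118B tumours and 8.46 to 8.73 in naive cortex. Over 15 myelin genes it was 4.22, 3.58 and 3.10 in YAP1-TFE3 tumours, 6.32, 6.85 and 5.46 in YAP1-FAM118B tumours and 7.09 to 8.05 in naive cortex. The groups did not overlap on either list. In bulk samples fewer cells of a type and less RNA per cell cannot be told apart. Because these levels separate the groups, their part in any difference between the fusions cannot be told apart from the fusion itself. A fit over the tumours that also held the mean of the neuron and myelin levels called 523 genes higher and 119 lower, against 4086 and 3282 without that term in the same libraries.

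**Figure D1:**
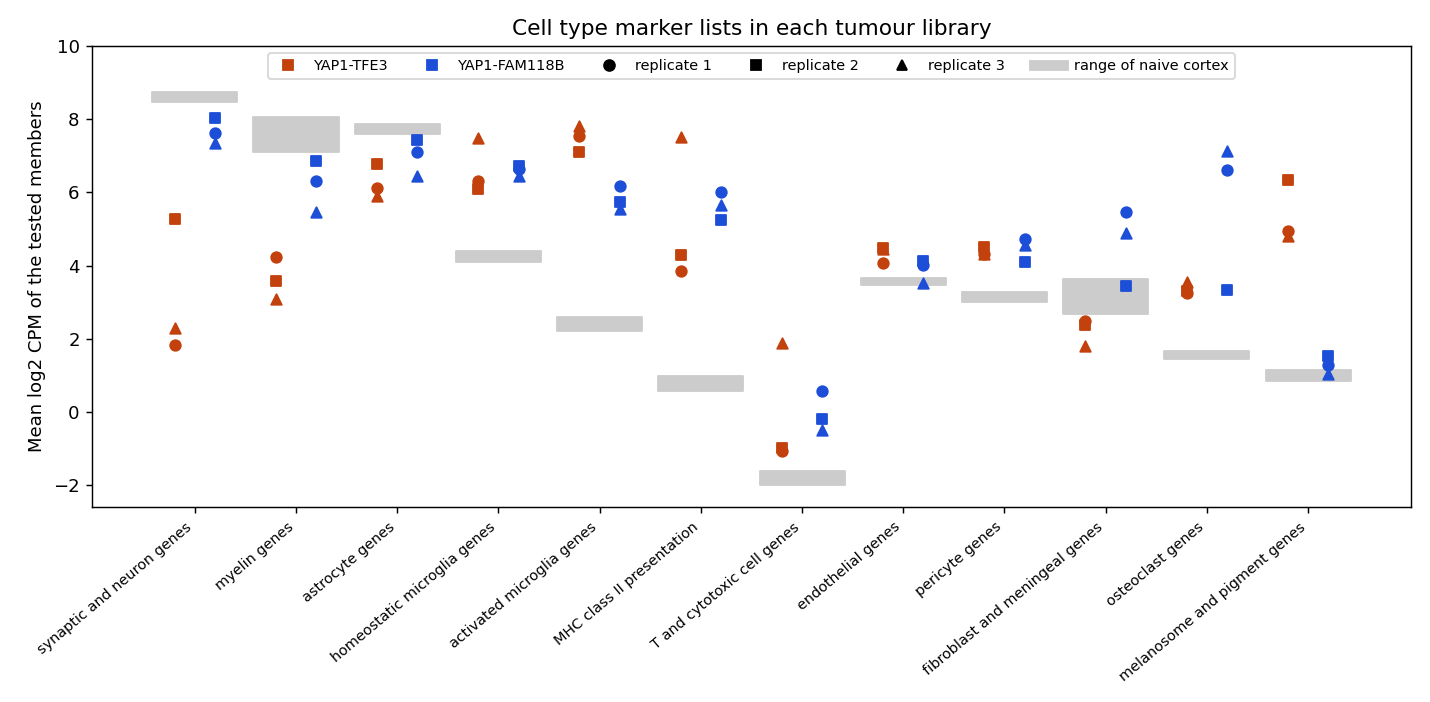
Mean log2 CPM over the members of 12 marker lists (vertical axis) in each tumour library, with YAP1-TFE3 tumours in orange to the left of YAP1-FAM118B tumours in blue; the grey band is the range of naive cortex. Neuron, myelin and fibroblast levels lay lower in YAP1-TFE3 tumours, activated microglia and melanosome levels higher, and T cell and MHC class II levels were highest in YAP1-TFE3 replicate 3.

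The fused genes came first as a check of the labels. Counts are per mouse gene symbol and do not separate the endogenous gene from the introduced fusion. Tfe3 had 155, 115 and 108 CPM in YAP1-TFE3 tumours, against 59.2, 44.5 and 61.7 CPM in YAP1-FAM118B tumours, a log2 fold change of 1.19 ± 0.18 (edgeR adjusted p = 0.000572). All YAP1-TFE3 libraries lay above all YAP1-FAM118B libraries for Tfe3. Fam118b, in contrast, had 66.0, 47.7 and 39.98 CPM in YAP1-TFE3 tumours, against 44.8, 31.4 and 59.1 CPM in YAP1-FAM118B tumours, and the groups overlapped (log2 fold change 0.18 ± 0.26, edgeR adjusted p = 0.573). Fam118b counts thus did not separate the groups and give no check of that label; how reads of the introduced sequence were assigned is not stated in the labels. Yap1 also overlapped, with 119, 109 and 79.7 CPM in YAP1-TFE3 tumours, against 72.9, 58.5 and 98.8 CPM in YAP1-FAM118B tumours. Mamld1, the partner in the other fusion of the series, did so too, at 9.98, 14.8 and 3.90 CPM in YAP1-TFE3 tumours, against 12.5, 18.2 and 11.2 CPM in YAP1-FAM118B tumours. The YAP1 paralogue Wwtr1, which encodes TAZ, had 143, 148 and 116 CPM in YAP1-TFE3 tumours, against 62.1, 49.3 and 95.4 CPM in YAP1-FAM118B tumours (0.97 ± 0.25). Wwtr1 rose without overlap. Tfeb rose less, by a log2 fold change of 0.78 ± 0.22, and lost its call without YAP1-FAM118B replicate 2 (0.65, edgeR adjusted p = 0.0539). Mitf was the member that fell, by 0.93 ± 0.33, with overlapping groups. Its call was lost without YAP1-FAM118B replicate 1 (-0.86), YAP1-FAM118B replicate 3 (-0.72), YAP1-TFE3 replicate 2 (-0.62) or YAP1-TFE3 replicate 3 (-1.04).

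Among the 15 genes with the smallest p of those higher in YAP1-TFE3 tumours, the replicates of each group lay close together. Choosing by smallest p favours such genes. Bace2, a protease that cuts the pigment protein PMEL, lies on chromosome 16 at 97356728 to 97442936 (GRCm38) and led the list. Bace2 had 438, 494 and 392 CPM in YAP1-TFE3 tumours, against 6.61, 6.17 and 5.03 CPM in YAP1-FAM118B tumours (6.21 ± 0.17, edgeR adjusted p = 9.79e-08). The YAP1-FAM118B tumours were near the mean of 7.21 CPM in naive cortex. Fuca2, an alpha-fucosidase, had 1138, 1049 and 1206 CPM in YAP1-TFE3 tumours, against 56.4, 58.1 and 40.2 CPM in YAP1-FAM118B tumours (4.45 ± 0.18). Flt4, the receptor VEGFR3, had 192, 311 and 219.8 CPM in YAP1-TFE3 tumours, against 6.04, 6.05 and 7.80 CPM in YAP1-FAM118B tumours (5.18 ± 0.25). Vegfb, a ligand of another VEGF receptor, rose as well, with 159.8, 172 and 166 CPM in YAP1-TFE3 tumours, against 36.0, 32.4 and 31.6 CPM in YAP1-FAM118B tumours. The rule that named these genes required groups that do not overlap. The remaining genes of the set were Gpr146, Ipmk (an inositol phosphate kinase), Hpgds (prostaglandin D synthase), Sord (sorbitol dehydrogenase), Cers4 (a ceramide synthase), St3gal6 (a sialyltransferase), Rab29 (a small GTPase), Lactb2 (a mitochondrial ribonuclease), Arhgap18, Oxct1 and Cox5a, with log2 fold changes of 2.06 (Lactb2) to 3.82 (Cers4). Bsg, which encodes basigin, the chaperone of lactate transporters, was picked after its values were seen because it took the largest share of counts in YAP1-TFE3 replicates 1 and 2. Bsg had 12040, 9060 and 7924 CPM in YAP1-TFE3 tumours, against 563, 457 and 563 CPM in YAP1-FAM118B tumours (4.20 ± 0.24).

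**Figure D2:**
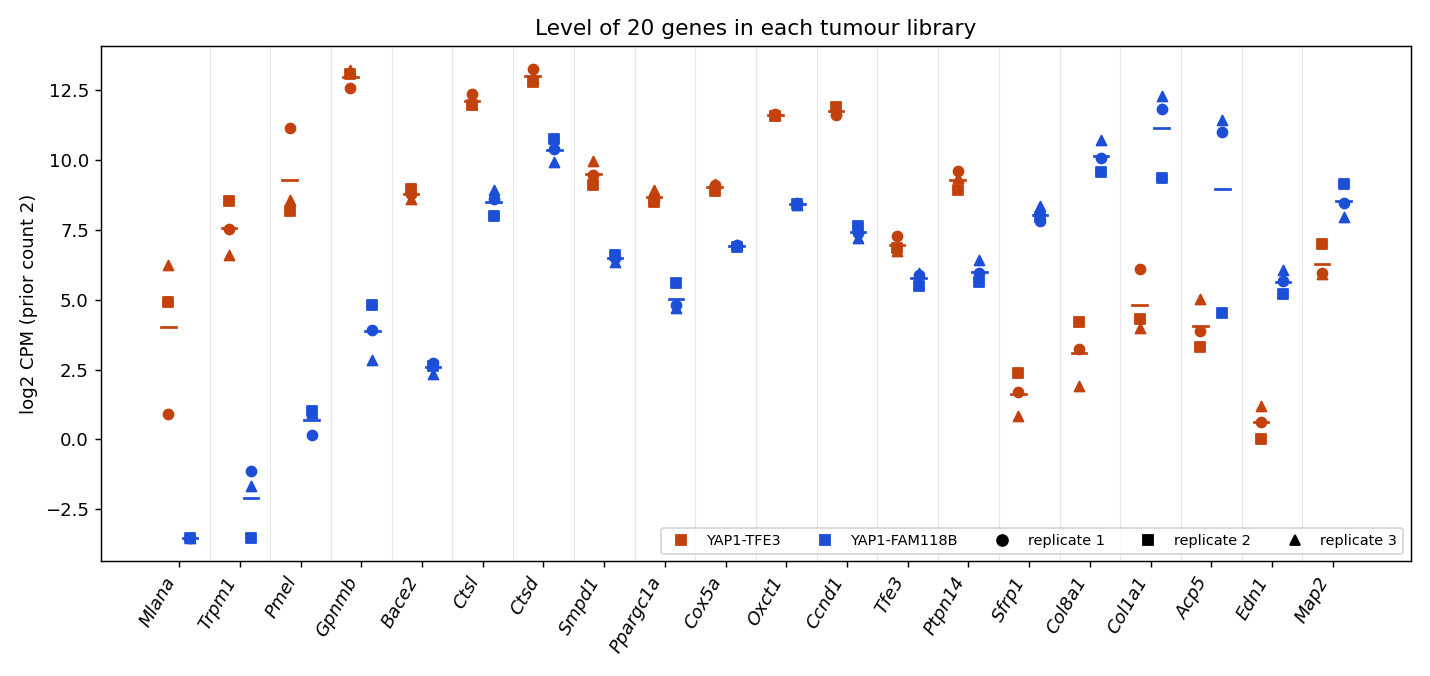
Log2 CPM (vertical axis) of 20 genes in every library, YAP1-TFE3 tumours in orange on the left and YAP1-FAM118B tumours in blue on the right of each gene; horizontal lines are group means. Bace2 and Oxct1 show tight, separate groups, Mlana and Pmel spread widely among YAP1-TFE3 tumours, and Col1a1 and Acp5 spread among YAP1-FAM118B tumours, where replicate 2 is lowest.

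The largest folds belonged to genes that were near 0 in YAP1-FAM118B tumours, and several of them varied widely among YAP1-TFE3 tumours. Aoc1, the histamine-degrading diamine oxidase, had 12.8, 10.3 and 122 CPM in YAP1-TFE3 tumours and no count in YAP1-FAM118B tumours, at least 1127-fold higher if 3 counts are allowed to the group at 0. Slc34a2, a phosphate transporter, had 9.98, 50.2 and 469 CPM in YAP1-TFE3 tumours, against 0, 0.0840 and 0 CPM in YAP1-FAM118B tumours, a 6158-fold ratio (95% interval 1704 to 50850, counting error only). YAP1-TFE3 replicate 3 was the highest for both. Without it the fitted log2 fold changes were 11.06 for Aoc1 and 9.79 for Slc34a2, against 13.12 and 12.34 with it. Gprc6a, an amino acid sensing receptor, had 38.3, 28.2 and 115 CPM in YAP1-TFE3 tumours, against 0, 0.0420 and 0 CPM in YAP1-FAM118B tumours. Slc25a48, a mitochondrial carrier, had 104, 73.0 and 106 CPM in YAP1-TFE3 tumours, against 0, 0.0840 and 0 CPM in YAP1-FAM118B tumours. Birc7, an inhibitor of apoptosis, had 219, 212 and 80.1 CPM in YAP1-TFE3 tumours, against 0.0411, 0.294 and 0.184 CPM in YAP1-FAM118B tumours. Trim63, a muscle ubiquitin ligase, had 238, 135 and 76.1 CPM in YAP1-TFE3 tumours, against 0.205, 0.294 and 0 CPM in YAP1-FAM118B tumours. These 4 genes were present in every YAP1-TFE3 tumour and at or near the limit of counting in every YAP1-FAM118B tumour. Their fitted folds moved most without YAP1-FAM118B replicate 2, to 13.43 for Gprc6a, 14.07 for Slc25a48, 10.53 for Birc7 and 10.37 for Trim63, against 11.58, 11.44, 9.91 and 9.73 with it. Wnt8b and Fndc3c1 were uneven among YAP1-TFE3 tumours: Wnt8b had 52.2, 0.266 and 70.7 CPM there, and Fndc3c1 ran from 0.650 to 51.6 CPM. Crct1 and Upk3bl, genes of skin and urothelium, had 434, 517 and 109 CPM and 129, 129 and 103.4 CPM in YAP1-TFE3 tumours, against at most 0.252 and 0.126 CPM in YAP1-FAM118B tumours.

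Lysosomal hydrolases, the enzymes that break down protein, lipid and sugar in the lysosome, were mostly higher in YAP1-TFE3 tumours. Of 47 tested, 30 rose and 3 fell (5 without YAP1-TFE3 replicate 3), with a median log2 fold change of 0.99 against 0.08 over all genes. Ctsl, a cysteine protease, had 5214, 4003 and 4128 CPM in YAP1-TFE3 tumours, against 385, 254 and 484 CPM in YAP1-FAM118B tumours (3.57 ± 0.25, edgeR adjusted p = 9.66e-06). Ctsd, an aspartic protease, had 9731, 7192 and 7813 CPM in YAP1-TFE3 tumours, against 1332, 1723 and 989 CPM in YAP1-FAM118B tumours (2.61 ± 0.24). Smpd1, acid sphingomyelinase, had 714, 546 and 1012 CPM in YAP1-TFE3 tumours, against 89.7, 97.5 and 80.9 CPM in YAP1-FAM118B tumours (3.08 ± 0.21). The groups were apart for all of these. Gla, the alpha-galactosidase of Fabry disease, rose by 2.47 ± 0.21 and the thioesterase Ppt2 by 2.46 ± 0.15. Of the other cathepsins on the list, Ctsa rose by 1.06 ± 0.28, Ctsb, Ctsc, Ctsf, Ctsh, Ctss and Ctsz did not pass the test, and Ctsk fell. Ctsb had 1873, 1030 and 1976 CPM in YAP1-TFE3 tumours, against 1689, 1303 and 1470 CPM in YAP1-FAM118B tumours, with overlap (0.13 ± 0.24, edgeR adjusted p = 0.681), and Psap, the saposin precursor, did not pass either (0.59 ± 0.26). The members that fell were Acp2, a lysosomal phosphatase (-0.30 ± 0.11), Ids, an iduronate sulfatase high in brain (61.2 ± 28.6 CPM in YAP1-TFE3 tumours and 236 ± 54.3 CPM in YAP1-FAM118B tumours, SD, n = 3 each), and Ctsk, the collagen-degrading cathepsin of osteoclasts. Under library size scaling and under TMM with naive replicate 1 as reference, 25 hydrolases rose. With the neuron and myelin term 6 rose.

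Proteins of the lysosome membrane moved alike: 17 of 28 rose and 1 fell, with a median of 0.91. Ctns, the cystine exporter, had 188, 121 and 143 CPM in YAP1-TFE3 tumours, against 22.2, 17.4 and 25.2 CPM in YAP1-FAM118B tumours (2.80 ± 0.21, edgeR adjusted p = 1.35e-05). Igf2r, the receptor that carries mannose 6-phosphate tagged enzymes to the lysosome, had 842, 898 and 372 CPM in YAP1-TFE3 tumours, against 89.9, 51.6 and 128 CPM in YAP1-FAM118B tumours (2.97 ± 0.41). Mcoln1, the lysosomal calcium channel, had 91.2, 82.3 and 98.9 CPM in YAP1-TFE3 tumours, against 50.5, 49.0 and 41.5 CPM in YAP1-FAM118B tumours (0.95 ± 0.13). All 3 rose without overlap, Mcoln1 least. Ostm1, a chloride channel partner, rose by 1.74 ± 0.12. Slc37a2, a sugar phosphate carrier of macrophages and osteoclasts, was the member that fell. Slc37a2 had 20.5, 10.0 and 25.1 CPM in YAP1-TFE3 tumours, against 177, 15.6 and 301 CPM in YAP1-FAM118B tumours, and the groups overlapped because YAP1-FAM118B replicate 2 was low. Its log2 fold change was -3.15 ± 0.80, and -2.38 without YAP1-FAM118B replicate 3. Membrane proteins that rose with the neuron and myelin term numbered 2.

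Promoters of 4 lysosome genes that rose are shown because they hold the palindromic E-box TCACGTGA, in capitals, within 250 bases before to 50 bases after the annotated start. Each is RefSeq sequence of GRCm38.p6, written 5′ to 3′ on the gene's strand. Ctsd lies at chr7:142387778-142388077 on the minus strand, with the motif at -99 from the start. Gla lies at chrX:134600956-134601255 on the minus strand, with motifs at -228 and -195. Igf2r lies at chr17:12769657-12769956 on the minus strand, with motifs at -49 and -8. Mcoln1 lies at chr8:3500269-3500568 on the plus strand, with the motif at -46.
Ctsd: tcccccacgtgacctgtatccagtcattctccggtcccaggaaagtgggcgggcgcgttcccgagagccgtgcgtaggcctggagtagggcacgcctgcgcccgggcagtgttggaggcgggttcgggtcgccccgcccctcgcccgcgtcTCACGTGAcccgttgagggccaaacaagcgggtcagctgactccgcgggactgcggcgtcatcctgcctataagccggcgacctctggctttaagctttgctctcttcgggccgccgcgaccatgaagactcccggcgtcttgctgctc
Gla: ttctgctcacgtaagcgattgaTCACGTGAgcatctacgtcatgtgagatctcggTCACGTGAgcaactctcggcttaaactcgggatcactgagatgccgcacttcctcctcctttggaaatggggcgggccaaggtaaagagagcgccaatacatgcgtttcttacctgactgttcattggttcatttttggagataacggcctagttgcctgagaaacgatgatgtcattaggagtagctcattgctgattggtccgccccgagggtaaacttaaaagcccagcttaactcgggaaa
Igf2r: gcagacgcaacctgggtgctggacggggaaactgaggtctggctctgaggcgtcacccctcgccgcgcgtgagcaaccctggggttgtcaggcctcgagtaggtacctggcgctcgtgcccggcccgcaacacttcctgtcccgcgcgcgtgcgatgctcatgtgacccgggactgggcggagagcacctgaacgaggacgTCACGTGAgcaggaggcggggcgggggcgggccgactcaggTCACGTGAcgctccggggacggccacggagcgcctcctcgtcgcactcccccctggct
Mcoln1: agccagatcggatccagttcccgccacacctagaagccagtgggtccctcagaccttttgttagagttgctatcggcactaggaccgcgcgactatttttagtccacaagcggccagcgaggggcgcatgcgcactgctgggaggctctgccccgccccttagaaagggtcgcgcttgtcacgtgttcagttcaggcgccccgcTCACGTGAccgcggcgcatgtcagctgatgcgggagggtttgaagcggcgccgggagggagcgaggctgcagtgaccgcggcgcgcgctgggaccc
The shorter E-box CACGTG, which TCACGTGA contains and which the overlapping GTCACGTG also contains, was searched on both strands. It was found in the promoters of 10 of 37 hydrolases (27%), 6 of 19 membrane proteins (31.6%) and 6 of 17 folliculin and Rag genes (35.3%) that have a promoter in the RefSeq table, against 9.56% of 12288 tested genes and 7.24% of all 27025 promoters. Promoters of the V-ATPase, the lysosome's proton pump, of which 4 of 19 subunits rose and 4 fell, held it in 4 of 13 cases (30.8%), and those of Hippo components in 7 of 26 (26.9%). Among members called higher it was in 7 of 23 hydrolases and 3 of 11 membrane proteins. The melanosome genes held it in 1 of 11 and the oxidative phosphorylation subunits in 5 of 61. Over all tested genes it was in 11.6% of those higher, 8.08% of those lower and 9.07% of those not called. TCACGTGA was in 2.4%, 0.992% and 1.7% of the genes higher, lower and tested. Membrane proteins held it in 4 of 19 promoters, and in 2 of 11 of those called higher. For hydrolases these counts were 2 of 37 and 2 of 23, and for V-ATPase subunits 3 of 13 and 1 of 2. These matches describe letters in a window and show no binding.

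Genes that hold TFE factors in the cytoplasm or release them moved in part. Of 18 members of the folliculin and Rag list, 8 rose and 5 fell (median 0.21). The folliculin partners rose together: Fnip2 had 141, 117 and 140 CPM in YAP1-TFE3 tumours, against 37.1, 29.98 and 45.0 CPM in YAP1-FAM118B tumours (1.83 ± 0.21, edgeR adjusted p = 0.000111), and Flcn and Fnip1 rose by 0.73 ± 0.14 and 0.83 ± 0.15. The Rag GTPase Rragc had 246, 194 and 274 CPM in YAP1-TFE3 tumours, against 108, 95.8 and 134 CPM in YAP1-FAM118B tumours (1.08 ± 0.17). Rragd, at 239, 182 and 339 CPM in YAP1-TFE3 tumours, against 111, 194 and 72.5 CPM in YAP1-FAM118B tumours, overlapped and did not pass (1.01 ± 0.41, edgeR adjusted p = 0.0607). Lamtor1 and Lamtor3, of the lysosomal scaffold, rose by 1.05 ± 0.15 and 0.68 ± 0.11. Mtor (-0.50 ± 0.15) and its activator Rheb (-0.33 ± 0.10) fell. The calls of Mtor were lost without YAP1-FAM118B replicate 2 (-0.34) or YAP1-TFE3 replicate 1 (-0.46), and those of Rheb without YAP1-FAM118B replicate 2 (-0.32), YAP1-FAM118B replicate 3 (-0.28) or YAP1-TFE3 replicate 1 (-0.28). No member of the list was called lower without YAP1-FAM118B replicate 2 or without YAP1-TFE3 replicate 1, and 3 were without any 1 of the other libraries. With the neuron and myelin term 0 members were called in either direction. The vacuolar proton pump did not move as a unit: 4 of 19 subunits rose and 4 fell (median 0.07). Its subunit Atp6v0a2 rose by 1.14 ± 0.21, and the neuron-rich Atp6v1g2 had 6.37, 43.6 and 5.48 CPM in YAP1-TFE3 tumours, against 202, 276 and 155 CPM in YAP1-FAM118B tumours (-3.51 ± 0.89). Autophagy genes split as well, with 62.5% called in either direction, against 51.7% of all genes. Of 40, 13 were higher and 12 lower (median -0.05), and 5 higher and 17 lower under TMM with naive replicate 1 as reference. Those higher numbered 8 without YAP1-FAM118B replicate 1 or YAP1-TFE3 replicate 1, and those lower 7 without replicate 2 of either group. Receptors of autophagy were among the higher ones. Optn had 176, 152 and 134 CPM in YAP1-TFE3 tumours, against 15.5, 14.6 and 11.7 CPM in YAP1-FAM118B tumours (3.47 ± 0.19, edgeR adjusted p = 3.26e-06). Sqstm1, which encodes p62, had 954, 788 and 752 CPM in YAP1-TFE3 tumours, against 450.2, 406 and 422 CPM in YAP1-FAM118B tumours (0.96 ± 0.14). Gabarapl2, an Atg8 homologue, rose by 1.89 ± 0.23. Atg13, of the initiating kinase complex, fell by 0.79 ± 0.09 and the vesicle protein Atg9a by 0.85 ± 0.15.

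Most melanosome and pigment genes were higher in YAP1-TFE3 tumours, to differing degrees among those tumours, and 9 of them were under 5 CPM in every YAP1-FAM118B tumour. Of 17 tested, 13 rose and 1 fell, with a median log2 fold change of 7.0, while Mitf itself, the master factor of pigment cells, did not rise. Their mean log2 CPM was 4.94, 6.34 and 4.80 in YAP1-TFE3 tumours, 1.29, 1.54 and 1.04 in YAP1-FAM118B tumours and 0.85 to 1.16 in naive cortex. Gpnmb, a glycoprotein of melanosomes and of lysosome-rich macrophages, lies on chromosome 6 at 49036518 to 49058182 (GRCm38). Gpnmb had 6069, 8766 and 9479 CPM in YAP1-TFE3 tumours, against 15.2, 28.2 and 7.15 CPM in YAP1-FAM118B tumours (8.91 ± 0.76, edgeR adjusted p = 2.45e-05, and 9.5 without YAP1-FAM118B replicate 2). Trpm1, a cation channel of melanocytes and retinal bipolar cells, had 185, 375 and 97.9 CPM in YAP1-TFE3 tumours, against 0.370, 0 and 0.231 CPM in YAP1-FAM118B tumours (10.06 ± 1.01, and 10.88 without YAP1-FAM118B replicate 1). Oca2, a melanosomal transporter, had 366, 339 and 202 CPM in YAP1-TFE3 tumours, against 0.328, 0.966 and 0.138 CPM in YAP1-FAM118B tumours (9.28 ± 1.10, and 10.28 without YAP1-FAM118B replicate 2). These genes were high in each YAP1-TFE3 tumour. Gpr143, a receptor of the melanosome membrane, was as even, at 38.4, 35.6 and 43.0 CPM in YAP1-TFE3 tumours. Pmel, the fibril protein, was not even. Pmel had 2268, 290.4 and 380.0 CPM in YAP1-TFE3 tumours, against 1.03, 1.93 and 1.84 CPM in YAP1-FAM118B tumours, and its log2 fold change of 9.25 ± 1.01 became 7.71 without YAP1-TFE3 replicate 1. Mlana, another melanosomal protein, had 1.78, 30.1 and 75.8 CPM in YAP1-TFE3 tumours and no count in YAP1-FAM118B tumours, at least 843-fold higher. Its fitted log2 fold change was 12.68, and 11.52 without YAP1-TFE3 replicate 3. The enzymes that make melanin stood out in one library. Dct had 2.46, 291 and 1.02 CPM in YAP1-TFE3 tumours, against 0.205, 0.714 and 0.0461 CPM in YAP1-FAM118B tumours, and its log2 fold change of 8.21 became 2.41 without YAP1-TFE3 replicate 2 (edgeR adjusted p = 0.0495). Tyrp1 had 5.30, 323 and 1.58 CPM in YAP1-TFE3 tumours, against 0.0821, 2.22 and 0.231 CPM in YAP1-FAM118B tumours, with overlap, and lost its call without YAP1-TFE3 replicate 2 (2.01, edgeR adjusted p = 0.321). Tyr, which encodes tyrosinase, had too few counts to be tested. Sox10, the neural crest and oligodendrocyte factor, was the member that fell, with 11.3, 24.8 and 22.7 CPM in YAP1-TFE3 tumours, against 129, 116 and 171 CPM in YAP1-FAM118B tumours (-2.82 ± 0.48). Pigment genes that rose with the neuron and myelin term numbered 6.

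**Figure D3:**
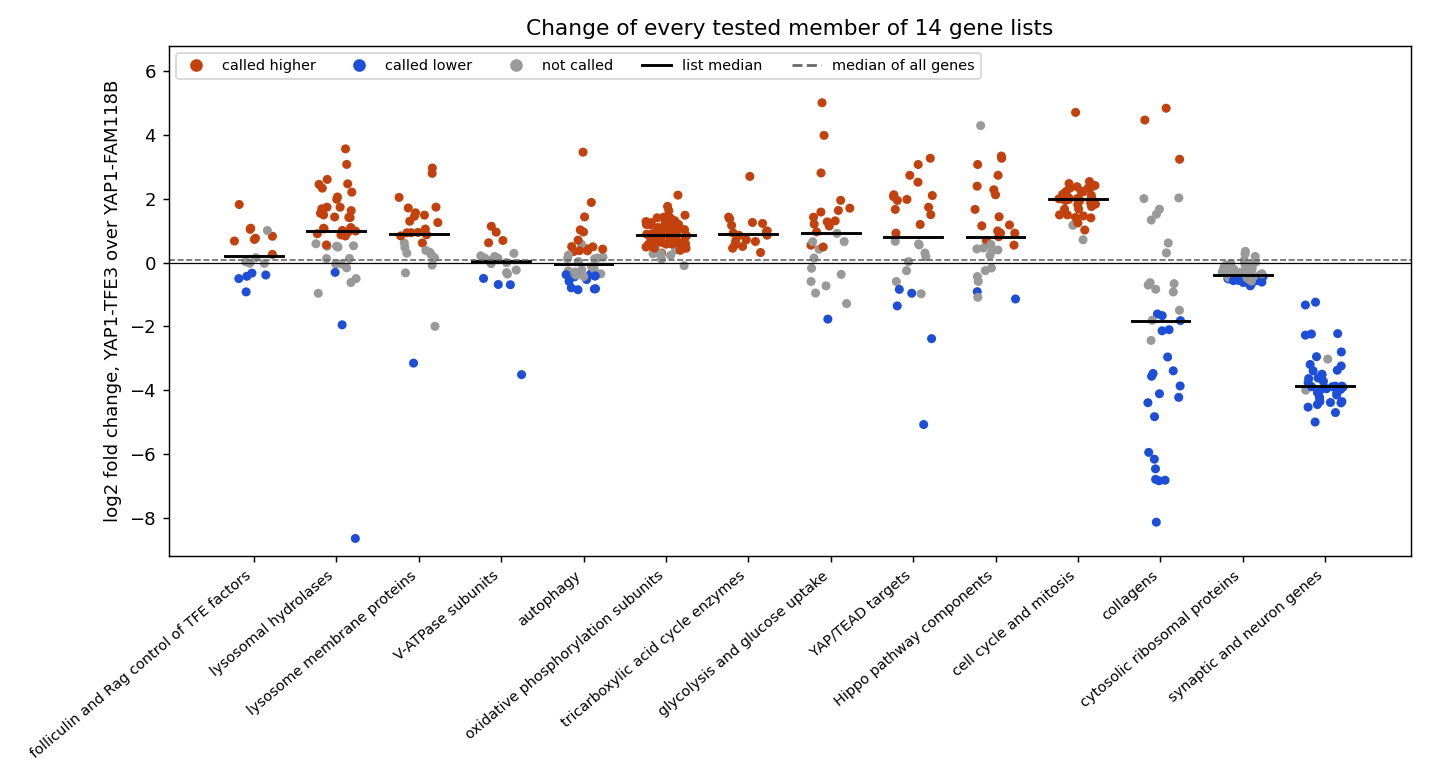
Log2 fold change, YAP1-TFE3 over YAP1-FAM118B (vertical axis), of each tested member of 14 gene lists, 1 point per gene, orange if called higher, blue if called lower and grey if not called; black bars are list medians. Most oxidative phosphorylation and cell cycle genes lie close to medians of 0.87 and 1.99, and collagens and neuron genes lie mostly below 0, around medians of -1.82 and -3.88.

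Mitochondrial energy genes rose together. Of 74 nuclear-encoded subunits of oxidative phosphorylation, 65 rose and none fell in edgeR's test, with a median of 0.87 and a range of -0.09 to 2.12. Under the other scalings the count higher went as low as 51, with 1 lower, under TMM with naive replicate 1 as reference, and it was 61 to 65 when any 1 library was left out. Cox5a, of cytochrome c oxidase, was the most changed subunit, with 549, 471 and 571 CPM in YAP1-TFE3 tumours, against 123, 118 and 124 CPM in YAP1-FAM118B tumours (2.12 ± 0.11, edgeR adjusted p = 3.26e-06). Atp5g3, of the ATP synthase ring, had 636, 583 and 713 CPM in YAP1-TFE3 tumours, against 212, 200.2 and 212 CPM in YAP1-FAM118B tumours (1.63 ± 0.11). Sdhc of complex II and Uqcrq of complex III rose by 1.20 ± 0.09 and 1.28 ± 0.10. All 18 enzymes of the tricarboxylic acid cycle and its entry rose (median 0.90), and 13 did under TMM with naive replicate 1 as reference. Idh2, the NADP-dependent isocitrate dehydrogenase, had 477, 393 and 389 CPM in YAP1-TFE3 tumours, against 65.9, 52.0 and 74.8 CPM in YAP1-FAM118B tumours (2.71 ± 0.23, edgeR adjusted p = 2.45e-05). Mdh2, Fh1 and Idh3a rose by 1.43 ± 0.14, 0.98 ± 0.09 and 1.38 ± 0.16. With the neuron and myelin term 8 of the oxidative phosphorylation subunits and 1 of the cycle enzymes rose.

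Of 18 regulators of mitochondrial biogenesis, 7 rose and 2 fell (median 0.29). The 50% called in either direction was near the 51.7% of all genes. Ppargc1a, the coactivator PGC-1alpha, on chromosome 5 at 51454249 to 52115853 (GRCm38), had 376, 366 and 483 CPM in YAP1-TFE3 tumours, against 28.4, 48.3 and 25.9 CPM in YAP1-FAM118B tumours (3.58 ± 0.47, edgeR adjusted p = 0.00024). Its paralogue Ppargc1b went the other way, with 1.69, 1.51 and 2.60 CPM in YAP1-TFE3 tumours, against 5.58, 5.67 and 9.64 CPM in YAP1-FAM118B tumours (-1.85 ± 0.35). The groups were apart for both. The fatty acid receptors rose too: Ppara had 39.9, 29.5 and 41.9 CPM in YAP1-TFE3 tumours, against 3.65, 4.11 and 2.63 CPM in YAP1-FAM118B tumours (3.42 ± 0.23), and Pparg had 63.4, 19.0 and 77.4 CPM in YAP1-TFE3 tumours, against 2.75, 2.31 and 5.08 CPM in YAP1-FAM118B tumours (3.98 ± 0.65). Of the oestrogen-related receptors, Esrrb rose by 3.39 ± 0.52, Esrra had 55.5, 41.8 and 86.4 CPM in YAP1-TFE3 tumours, against 52.5, 48.4 and 52.7 CPM in YAP1-FAM118B tumours, and Esrrg fell by 2.31 ± 0.79. The call of Esrrg was lost without YAP1-FAM118B replicate 1 (-2.29), YAP1-FAM118B replicate 2 (-2.07) or YAP1-TFE3 replicate 1 (-2.48), and its value was -2.93 without YAP1-TFE3 replicate 2. Tfam, which packages mitochondrial DNA, did not pass the test (0.17 ± 0.16). Oxct1, which lets mitochondria burn ketone bodies, had 3195, 3079 and 3151 CPM in YAP1-TFE3 tumours, against 352, 344 and 340.3 CPM in YAP1-FAM118B tumours (3.19 ± 0.14, edgeR adjusted p = 1.39e-06). Its 3 libraries of each group lay close together and the groups far apart, which its choice by smallest p favours.

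Genes of glucose uptake and glycolysis rose beside those of respiration: 15 of 27 were higher and 1 was lower (median 0.92). Those lower numbered 3 without YAP1-FAM118B replicate 2 and 2 without YAP1-TFE3 replicate 2. The insulin-responsive transporter Slc2a4 had 111, 82.0 and 51.6 CPM in YAP1-TFE3 tumours, against 2.09, 2.90 and 2.54 CPM in YAP1-FAM118B tumours (5.02 ± 0.42, edgeR adjusted p = 2.39e-05). Slc2a3 had 1077, 818 and 796 CPM in YAP1-TFE3 tumours, against 112, 173 and 97.0 CPM in YAP1-FAM118B tumours (2.81 ± 0.27). Slc16a1, the lactate transporter MCT1 that pairs with basigin, had 746, 667 and 1013 CPM in YAP1-TFE3 tumours, against 53.6, 69.0 and 29.7 CPM in YAP1-FAM118B tumours (3.99 ± 0.43). Hexokinase Hk2 and the regulator Pfkfb3 rose by 1.96 ± 0.15 and 1.71 ± 0.17. All of these separated the groups. Ldha, which makes lactate, did not pass: it had 565, 564 and 552 CPM in YAP1-TFE3 tumours, against 960.3, 633 and 937 CPM in YAP1-FAM118B tumours (-0.59 ± 0.26, edgeR adjusted p = 0.0839). Pfkm, the muscle and brain phosphofructokinase, fell by 1.77 ± 0.27. Genes of the hypoxia response split, with 6 of 21 higher and 4 lower (median -0.27), and 2 lower without YAP1-FAM118B replicate 1 or 3 or YAP1-TFE3 replicate 2 or 3. The 47.6% called in either direction was near the 51.7% of all genes. Ndrg1 had 3405, 2021 and 2719 CPM in YAP1-TFE3 tumours, against 290.0, 175 and 333 CPM in YAP1-FAM118B tumours (3.35 ± 0.32), and Vegfa, the main blood vessel growth factor, had 721, 480.5 and 356 CPM in YAP1-TFE3 tumours, against 167, 109 and 136 CPM in YAP1-FAM118B tumours (1.92 ± 0.32). In the other direction, Ankrd37 fell by 1.32 ± 0.37, a call lost without YAP1-FAM118B replicate 1 (-1.09), and Pdk1 fell by 0.93 ± 0.27, a call lost without YAP1-TFE3 replicate 1 (-0.87).

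Genes of cholesterol synthesis and uptake rose in YAP1-TFE3 tumours, with 18 of 28 higher and 2 lower (median 0.86). Dhcr7, an enzyme of the pathway's last steps, had 318, 319 and 178 CPM in YAP1-TFE3 tumours, against 30.3, 31.1 and 26.4 CPM in YAP1-FAM118B tumours (3.21 ± 0.24, edgeR adjusted p = 1.24e-05). Insig1 and Insig2, which hold back the pathway when sterols are plentiful, rose by 2.20 ± 0.21 and 1.17 ± 0.13. The sterol exporter Abcg1 fell by 1.37 ± 0.24. Genes of serine and one-carbon metabolism moved both ways, with 8 of 22 higher and 4 lower (median 0.66). The 54.5% called in either direction was near the 51.7% of all genes. Aldh1l1, the cytosolic 10-formyltetrahydrofolate dehydrogenase and an astrocyte marker, had 977, 888 and 448 CPM in YAP1-TFE3 tumours, against 56.6, 73.2 and 39.4 CPM in YAP1-FAM118B tumours (3.77 ± 0.37). Its mitochondrial counterpart Aldh1l2 had 12.4, 11.6 and 12.6 CPM in YAP1-TFE3 tumours, against 87.0, 43.7 and 134 CPM in YAP1-FAM118B tumours (-2.85 ± 0.36). The paralogues thus separated the groups in opposite directions. Phgdh, the first enzyme of serine synthesis, rose by 1.97 ± 0.24 and Asns, asparagine synthetase, fell by 2.03 ± 0.39.

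Both tumours carry a YAP1 fusion, and many YAP/TEAD targets differed between them. Of 28 targets, 14 rose and 5 fell (median 0.80). The classic pair did not: Cyr61 had 488, 395 and 174 CPM in YAP1-TFE3 tumours, against 365, 262 and 406 CPM in YAP1-FAM118B tumours (0.03 ± 0.47, edgeR adjusted p = 0.959), and Ctgf had 1136, 1394 and 136 CPM in YAP1-TFE3 tumours, against 1055, 457 and 1661 CPM in YAP1-FAM118B tumours (-0.25 ± 0.85). Both overlapped, and their naive means were 13.6 and 32.3 CPM. Ankrd1 had 909, 642 and 631 CPM in YAP1-TFE3 tumours, against 230.2, 149 and 274 CPM in YAP1-FAM118B tumours (1.74 ± 0.61), a call lost in 4 of the 6 fits that left out 1 library (highest edgeR adjusted p = 0.109). Targets that rose included genes that also feed back on the Hippo pathway. Ptpn14, a phosphatase that binds YAP1, had 782, 484 and 653 CPM in YAP1-TFE3 tumours, against 62.0, 50.2 and 85.8 CPM in YAP1-FAM118B tumours (3.28 ± 0.42, edgeR adjusted p = 0.000233). Lats2, the kinase that phosphorylates YAP1, had 512, 507 and 429 CPM in YAP1-TFE3 tumours, against 100.6, 92.6 and 138 CPM in YAP1-FAM118B tumours (2.13 ± 0.28). Ajuba, which restrains LATS kinases, and the scaffold Amotl1 rose by 3.08 ± 0.42 and 2.74 ± 0.50. Edn1, which encodes the vasoconstrictor endothelin 1, was the target that fell most. Edn1 had 1.45, 0.931 and 2.18 CPM in YAP1-TFE3 tumours, near the naive mean of 1.502 CPM, against 50.8, 37.2 and 66.3 CPM in YAP1-FAM118B tumours (-5.08 ± 0.39, edgeR adjusted p = 1.44e-05).

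The Hippo components as a list rose as well, with 17 of 31 higher and 2 lower (median 0.81). Wwc1, the adaptor KIBRA, had 475, 356 and 375 CPM in YAP1-TFE3 tumours, against 76.7, 97.3 and 73.3 CPM in YAP1-FAM118B tumours (2.29 ± 0.23, edgeR adjusted p = 6.37e-05). The kinase Stk3 rose by 1.16 ± 0.14. Among the TEAD factors, Tead4 had 58.6, 48.2 and 35.7 CPM in YAP1-TFE3 tumours, against 3.70, 3.82 and 6.50 CPM in YAP1-FAM118B tumours (3.35 ± 0.72), and Tead1 rose by 1.67 ± 0.31. The cofactor Vgll3 fell by 1.14 ± 0.32, a call lost without YAP1-FAM118B replicate 3 (-0.86) or YAP1-TFE3 replicate 1 (-0.93). Frmd6 fell by 0.91 ± 0.34 with overlapping groups, a call lost without YAP1-FAM118B replicate 1 (-0.87), YAP1-FAM118B replicate 3 (-0.64), YAP1-TFE3 replicate 2 (-0.89) or YAP1-TFE3 replicate 3 (-0.75). With YAP1-FAM118B replicate 3 as the only library of its group, whose sex markers match those of the YAP1-TFE3 tumours, 8 targets and 8 Hippo components rose. With the neuron and myelin term 2 and 3 did. The promoters of Ptpn14 (chr1:189728018-189728317, plus strand) and Lats2 (chr14:57746074-57746373, minus strand) are shown because both genes are targets and feedback components and hold the TEAD motif GGAATG, in capitals, read as CATTCC from the opposite strand at -146 in Ptpn14 and as GGAATG at 4 after the start in Lats2. The sequences are RefSeq, GRCm38.p6, 5′ to 3′ on the gene's strand.
Ptpn14: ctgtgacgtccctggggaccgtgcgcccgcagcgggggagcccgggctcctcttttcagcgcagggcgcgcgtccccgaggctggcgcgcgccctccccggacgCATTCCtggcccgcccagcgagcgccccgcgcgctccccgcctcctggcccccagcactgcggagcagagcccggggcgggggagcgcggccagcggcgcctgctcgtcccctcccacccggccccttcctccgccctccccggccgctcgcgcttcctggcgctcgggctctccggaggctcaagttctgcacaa
Lats2: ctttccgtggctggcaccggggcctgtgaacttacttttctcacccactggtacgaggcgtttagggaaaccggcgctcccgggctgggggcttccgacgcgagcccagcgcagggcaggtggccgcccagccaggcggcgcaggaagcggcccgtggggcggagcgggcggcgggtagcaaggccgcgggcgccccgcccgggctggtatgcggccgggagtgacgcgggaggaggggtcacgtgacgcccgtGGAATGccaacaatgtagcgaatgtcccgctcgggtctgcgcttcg
GGAATG was found on either strand in 8 of 20 target promoters (40%) and 12 of 26 Hippo component promoters (46.2%), lists that share members, against 12.5% of tested genes, 13.8% of genes higher and 11.8% of genes lower.

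Cell cycle genes rose almost without exception. Of 40 genes of DNA replication and mitosis, 38 rose and none fell in edgeR's test, with a median of 1.99, and 38 rose under each scaling. The members not called were Mybl2 (1.17 ± 0.69) and E2f1 (0.72 ± 0.29). Rrm2, the ribonucleotide reductase subunit made in S phase, had 571, 1002 and 519 CPM in YAP1-TFE3 tumours, against 25.4, 32.1 and 22.2 CPM in YAP1-FAM118B tumours (4.71 ± 0.32, edgeR adjusted p = 8.96e-06). Mki67, the proliferation marker Ki-67, had 196, 234 and 371 CPM in YAP1-TFE3 tumours, against 65.4, 63.0 and 68.4 CPM in YAP1-FAM118B tumours and a mean of 2.70 CPM in naive cortex (2.02 ± 0.29). Tpx2, Rrm1 and Mcm7 rose by 2.22 ± 0.19, 1.98 ± 0.17 and 1.84 ± 0.16. With the neuron and myelin term 13 rose. Of 22 G1 genes, 13 rose and 3 fell (median 0.73). The D-type cyclins parted. Ccnd1, on chromosome 7 at 144929931 to 144939831 (GRCm38), had 3113, 3790 and 3533 CPM in YAP1-TFE3 tumours, against 167, 198 and 149 CPM in YAP1-FAM118B tumours (4.34 ± 0.27, edgeR adjusted p = 5.4e-06). Ccnd2 had 84.8, 76.9 and 21.4 CPM in YAP1-TFE3 tumours, against 199.7, 216 and 225 CPM in YAP1-FAM118B tumours (-1.81 ± 0.45). Cdk4 and Cdk2 rose by 1.26 ± 0.15 and 1.80 ± 0.24. The CDK inhibitor Cdkn2c rose by 2.71 ± 0.26, with 93.4, 95.8 and 96.3 CPM in YAP1-TFE3 tumours, against 15.4, 11.7 and 16.6 CPM in YAP1-FAM118B tumours. Mycn fell by 2.21 ± 0.37.

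Genes of the protein turnover machinery moved by less. Proteasome subunits rose in 25 of 31 cases and none fell in edgeR's test (median 0.53), though 17 rose under library size scaling, 13 under TMM with naive replicate 1 as reference and 0 with the neuron and myelin term. Psmd8 had the largest fold of the list, with 898, 519 and 534 CPM in YAP1-TFE3 tumours, against 119, 111 and 117 CPM in YAP1-FAM118B tumours (2.49 ± 0.21, edgeR adjusted p = 2.43e-05). Psmc4, Psmd2 and Psmb4 rose by 1.20 ± 0.17, 0.82 ± 0.11 and 0.70 ± 0.10. Cytosolic ribosomal proteins were lower in 18 of 63 cases (28.6%), near the 23.7% of all genes, with none up in edgeR's test (median -0.37). That count was 38 without YAP1-FAM118B replicate 2 and 2 or 3 without YAP1-FAM118B replicate 1 or 3 or YAP1-TFE3 replicate 1 or 2. It was 36 in DESeq2 and 47 under TMM with naive replicate 1 as reference, and was 0 with the neuron and myelin term. Rpl12 (-0.73 ± 0.18) and Rpl14 (-0.67 ± 0.18) fell.

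**Figure D4:**
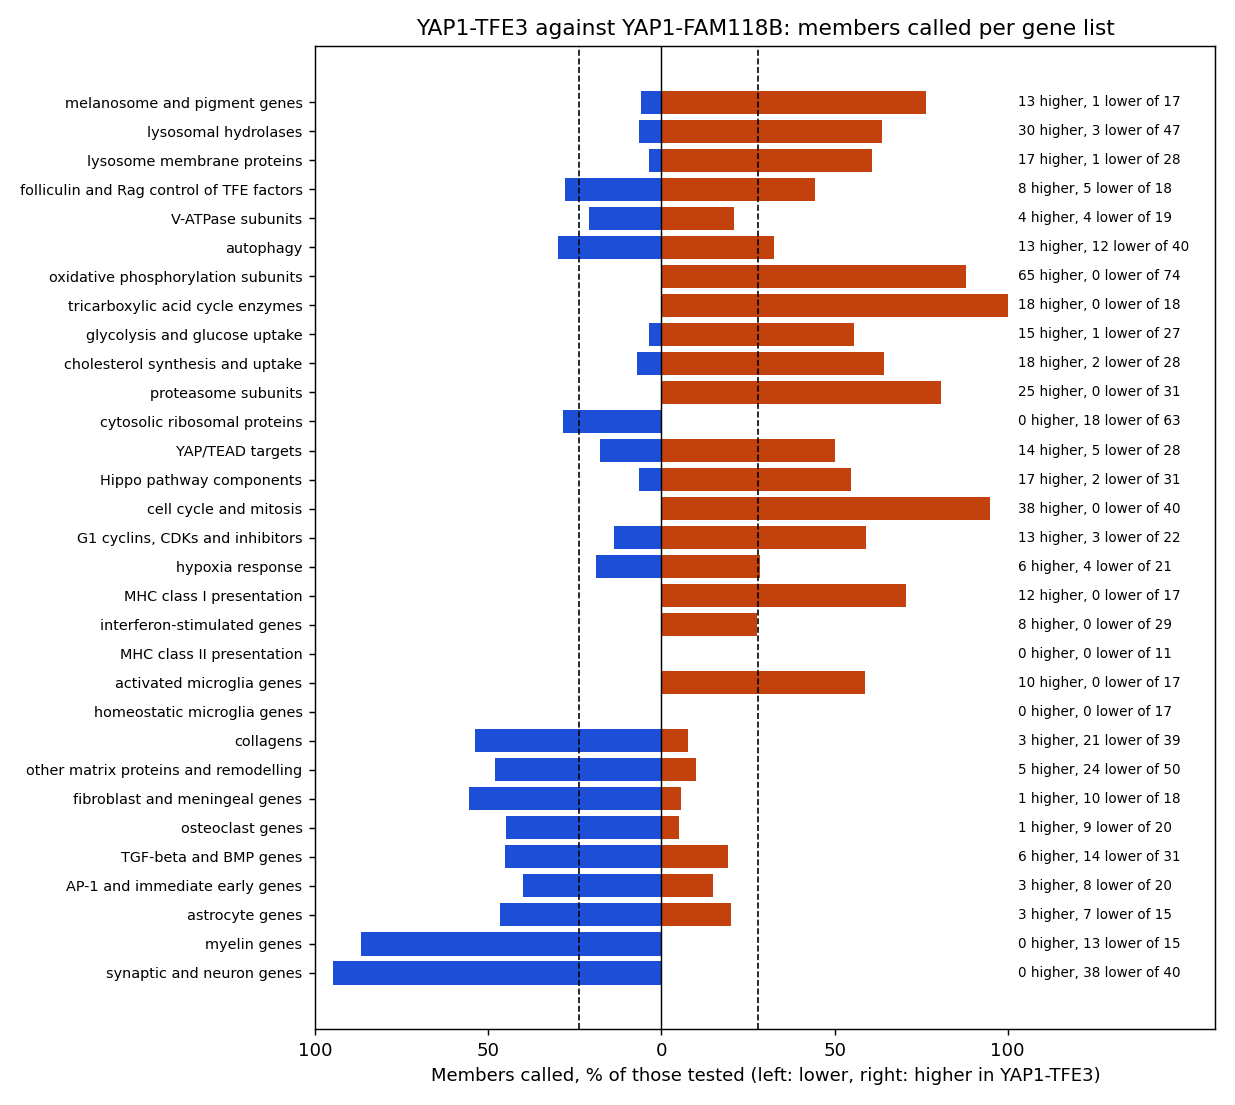
Percentage of tested members called higher or lower in YAP1-TFE3 tumours than in YAP1-FAM118B tumours for 31 gene lists (horizontal axis, orange bars to the right for higher and blue bars to the left for lower); dashed lines mark the share of all tested genes called higher (28%) and lower (23.7%). Tricarboxylic acid cycle, oxidative phosphorylation and cell cycle lists lie far above the higher line, and neuron, myelin and collagen lists far above the lower line.

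The largest folds lower in YAP1-TFE3 tumours fell on matrix, macrophage and osteoclast genes. Several of these were low in YAP1-FAM118B replicate 2. Dpt, dermatopontin of the matrix, had 0.0482, 0 and 0 CPM in YAP1-TFE3 tumours, against 35.8, 0.168 and 10.8 CPM in YAP1-FAM118B tumours, and its log2 fold change of -9.54 was -8.02 without YAP1-FAM118B replicate 1 and -11.49 without YAP1-TFE3 replicate 1. Cd163, the haemoglobin scavenger receptor of macrophages, had 0, 0 and 0.0464 CPM in YAP1-TFE3 tumours, against 27.5, 1.76 and 12.4 CPM in YAP1-FAM118B tumours, and its log2 fold change of -9.38 was -8.40 without YAP1-FAM118B replicate 1 and -11.32 without YAP1-TFE3 replicate 3. Cilp, a cartilage matrix protein, had 0, 0.0443 and 0.0464 CPM in YAP1-TFE3 tumours, against 39.4, 0.126 and 28.0 CPM in YAP1-FAM118B tumours (-9.28, and -8.60 without YAP1-FAM118B replicate 1). YAP1-FAM118B replicate 2 held little of Dpt and Cilp. Other genes were present in all 3 YAP1-FAM118B tumours. Lep, the hormone leptin, had 0.482, 0 and 0 CPM in YAP1-TFE3 tumours, against 63.5, 74.2 and 175 CPM in YAP1-FAM118B tumours (-9.33, from -14.23 without YAP1-TFE3 replicate 1 to -8.73 without YAP1-FAM118B replicate 3). Osr1, a zinc finger factor of mesenchyme, had 0, 0.133 and 0.0464 CPM in YAP1-TFE3 tumours, against 35.8, 13.7 and 47.7 CPM in YAP1-FAM118B tumours (-8.92, and -10.12 without YAP1-TFE3 replicate 2). Col28a1 had 0.675, 2.04 and 1.07 CPM in YAP1-TFE3 tumours, against 279, 232 and 566 CPM in YAP1-FAM118B tumours (-8.14 ± 1.00). Pkp1, a desmosome protein, had 0.193, 0.266 and 0.139 CPM in YAP1-TFE3 tumours, against 35.5, 17.0 and 53.9 CPM in YAP1-FAM118B tumours (-7.43 ± 1.33). The rule that named these 4 genes required groups that do not overlap. Their naive means were at most 2.48 CPM.

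Genes with the smallest p among those lower were a mixed set, and choosing by smallest p favours even replicates. Edn1 and Osr1, given above, were also in this set. Sfrp1, a secreted WNT antagonist on chromosome 8 at 23411383 to 23449632 (GRCm38), had 3.14, 5.06 and 1.72 CPM in YAP1-TFE3 tumours, against 224, 248 and 327 CPM in YAP1-FAM118B tumours (-6.33 ± 0.44, edgeR adjusted p = 9.66e-06). Nog, the BMP antagonist noggin, had 0.482, 0.355 and 0.418 CPM in YAP1-TFE3 tumours, against 14.8, 14.1 and 15.5 CPM in YAP1-FAM118B tumours (-5.13 ± 0.30). Ackr3, a scavenging receptor of CXCL12, had 15.6, 8.78 and 10.4 CPM in YAP1-TFE3 tumours, against 165, 121 and 225 CPM in YAP1-FAM118B tumours (-3.88 ± 0.27). Sfrp1 and Ackr3 were far above naive cortex (means of 15.4 and 14.8 CPM) in YAP1-FAM118B tumours. Kcnh5, a neuronal potassium channel, had 0.482, 0.310 and 0.325 CPM in YAP1-TFE3 tumours, against 20.6, 18.9 and 18.04 CPM in YAP1-FAM118B tumours and a naive mean of 29.1 CPM (-5.67 ± 0.30, edgeR adjusted p = 3.26e-06). Mgst3, Impdh1 (of guanine nucleotide synthesis), Pcdhb17, Dsel, Zbtb4, Map6d1, Cygb (cytoglobin), Armcx3 and Fam117b fell, with log2 fold changes of -1.44 (Zbtb4) to -4.35 (Map6d1).

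**Figure D5:**
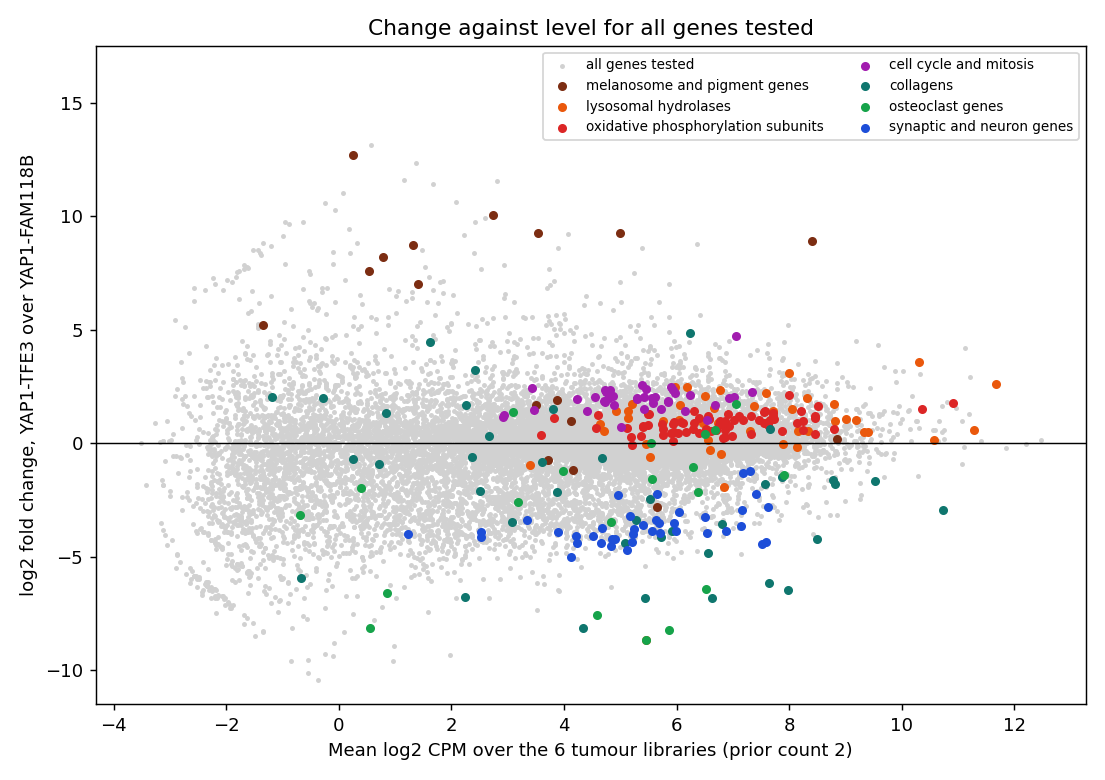
Log2 fold change, YAP1-TFE3 over YAP1-FAM118B (vertical axis), against the mean log2 CPM over the libraries (horizontal axis), 1 point per tested gene, with members of 7 gene lists coloured. Of the coloured lists, melanosome genes reach highest, though their lowest member lies at -2.82. Osteoclast and collagen genes reach lowest (-8.65 and -8.14), and neuron genes lie between -5.00 and -1.24. Oxidative phosphorylation subunits form a band just above the line at 0.

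Collagens were lower in YAP1-TFE3 tumours: 21 of 39 fell and 3 rose (6 without YAP1-TFE3 replicate 3), with a median of -1.82. Col1a1, the main fibril collagen, on chromosome 11 at 94936224 to 94953042 (GRCm38), had 68.9, 19.9 and 15.8 CPM in YAP1-TFE3 tumours, against 3626, 660.4 and 4971 CPM in YAP1-FAM118B tumours (-6.47 ± 0.96, edgeR adjusted p = 0.000503, and -7.43 without YAP1-TFE3 replicate 1). Col8a1, a network collagen of vessel walls, had 9.31, 18.3 and 3.67 CPM in YAP1-TFE3 tumours, against 1083, 764 and 1698 CPM in YAP1-FAM118B tumours (-6.82 ± 0.71, and -7.51 without YAP1-TFE3 replicate 2). Basement membrane chains parted. Col4a1 had 332, 456 and 468 CPM in YAP1-TFE3 tumours, against 1227, 1047 and 1699 CPM in YAP1-FAM118B tumours (-1.66 ± 0.40), while Col4a4 had 26.1, 17.96 and 8.27 CPM in YAP1-TFE3 tumours, against 1.07, 2.14 and 2.31 CPM in YAP1-FAM118B tumours (3.24 ± 0.53). Col9a3, a cartilage collagen, was the most raised, with 458, 576 and 237 CPM in YAP1-TFE3 tumours, against 15.3, 18.3 and 10.6 CPM in YAP1-FAM118B tumours (4.85 ± 0.47). Other matrix proteins and remodelling enzymes followed, with 24 of 50 lower and 5 higher (median -1.65). Laminin chains went both ways: Lama5 rose by 4.11 ± 0.68, with 274, 243 and 66.4 CPM in YAP1-TFE3 tumours, against 10.6, 15.1 and 8.03 CPM in YAP1-FAM118B tumours, and Lama2 fell by 2.71 ± 0.34. Adamts2, which trims procollagen, fell (-5.12 ± 0.84, and -4.44 without YAP1-FAM118B replicate 3). With the neuron and myelin term 6 collagens fell.

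Osteoclast genes were prominent in YAP1-FAM118B replicates 1 and 3 and not in replicate 2. Their mean log2 CPM was 3.24, 3.31 and 3.56 in YAP1-TFE3 tumours, 6.60, 3.34 and 7.14 in YAP1-FAM118B tumours and 1.44 to 1.66 in naive cortex. Of 20 tested, 9 fell and 1 rose (median -2.07), and 14 fell without YAP1-FAM118B replicate 2. Acp5, the tartrate-resistant acid phosphatase, had 14.6, 9.89 and 32.4 CPM in YAP1-TFE3 tumours, against 2056, 22.8 and 2745 CPM in YAP1-FAM118B tumours (-6.41 ± 1.38). Ctsk, on chromosome 3 at 95499210 to 95509387 (GRCm38), had 10.9, 1.68 and 1.997 CPM in YAP1-TFE3 tumours, against 2138, 22.2 and 3699 CPM in YAP1-FAM118B tumours (-8.65 ± 1.76, from -10.04 without YAP1-TFE3 replicate 1 to -7.80 without YAP1-FAM118B replicate 3). Mmp9, a gelatinase, had 7.48, 8.43 and 3.34 CPM in YAP1-TFE3 tumours, against 2280.0, 23.3 and 3426 CPM in YAP1-FAM118B tumours (-8.22 ± 1.72, and -7.49 without YAP1-FAM118B replicate 3). YAP1-FAM118B replicate 2 lay close to or within the YAP1-TFE3 range for these 3 genes, and Acp5 overlapped. Fibroblast and meningeal genes, which share the collagens, fell in 10 of 18 cases and rose in 1 (median -2.30), with mean log2 CPM of 2.48, 2.37 and 1.81 in YAP1-TFE3 tumours and 5.46, 3.43 and 4.89 in YAP1-FAM118B tumours. Cemip, a hyaluronan-degrading protein, was the one that rose (2.27 ± 0.63). Smooth muscle genes split, with 5 of 17 higher and 6 lower (median -1.44). Acta2, smooth muscle actin, had 4656, 4396 and 2249 CPM in YAP1-TFE3 tumours, against 423, 434 and 526 CPM in YAP1-FAM118B tumours (3.03 ± 0.83), while Tpm2 fell by 3.67 ± 0.74 and Tpm1 rose by 1.45 ± 0.18. The groups were apart for Acta2. Of 25 integrins, 6 rose and 2 fell (5 without YAP1-TFE3 replicate 3, median -0.08), among them Itgb5 (1.68 ± 0.17) and Itga9 (2.25 ± 0.32) higher and Itgb3, the osteoclast integrin, lower (-3.46 ± 0.78) with overlapping groups.

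Vessel markers showed few differences as a list: 5 of 20 endothelial genes rose and 3 fell (median 0.43), and none of 10 pericyte genes rose in edgeR's test while 3 fell (median 0.18). Endothelial levels overlapped between the groups, with mean log2 CPM of 4.08, 4.47 and 4.46 in YAP1-TFE3 tumours and 4.01, 4.12 and 3.51 in YAP1-FAM118B tumours. Single genes moved. Mfsd2a, the lipid transporter of the blood-brain barrier, had 360.4, 187 and 131 CPM in YAP1-TFE3 tumours, against 17.0, 27.0 and 18.1 CPM in YAP1-FAM118B tumours (3.45 ± 0.39, edgeR adjusted p = 0.000105). Plvap, a marker of leaky vessels, had 97.2, 119 and 41.0 CPM in YAP1-TFE3 tumours, against 26.3, 13.1 and 20.8 CPM in YAP1-FAM118B tumours (2.10 ± 0.43). Both rose without overlap. The barrier transporter Slco1a4 fell by 1.76 ± 0.40.

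Homeostatic microglia genes did not pass the test, with none of 17 called in edgeR and 7 called lower without YAP1-TFE3 replicate 3 (median 0.11). Their mean log2 CPM was 6.32, 6.11 and 7.48 in YAP1-TFE3 tumours, 6.64, 6.73 and 6.45 in YAP1-FAM118B tumours and 4.09 to 4.39 in naive cortex, so both tumours lay above cortex. P2ry12, the microglial ADP receptor, had 22.1, 23.4 and 52.1 CPM in YAP1-TFE3 tumours, against 33.2, 54.8 and 25.9 CPM in YAP1-FAM118B tumours, with overlap (-0.22 ± 0.43, edgeR adjusted p = 0.685). Genes of activated microglia rose in 10 of 17 cases and none fell in edgeR's test (median 1.46, range -2.45 to 8.91). Trem2 (0.68, edgeR adjusted p = 0.147) and Cst7 (-0.09, edgeR adjusted p = 0.92) did not pass the test. Lpl, lipoprotein lipase, had 830.0, 952 and 977 CPM in YAP1-TFE3 tumours, against 56.3, 30.8 and 44.4 CPM in YAP1-FAM118B tumours (4.39 ± 0.40, edgeR adjusted p = 3.31e-05). Lgals3, galectin 3, had 1939, 1194 and 1847 CPM in YAP1-TFE3 tumours, against 182, 68.6 and 177 CPM in YAP1-FAM118B tumours (3.54 ± 0.40). The chemokines Ccl3 and Ccl4 rose by 3.51 ± 0.95 (4.34 without YAP1-FAM118B replicate 2) and 2.86 ± 0.59. Several members of this list, Gpnmb, Cd63 and Axl among them, are also pigment, lysosome or YAP target genes. Monocyte and macrophage genes went both ways, with 2 of 18 higher and 3 lower, and 8 were lower without YAP1-TFE3 replicate 3. Cd68, a lysosomal protein of macrophages, rose by 2.06 ± 0.46, and Ms4a7 fell by 3.76 ± 1.09, with 6.46, 2.39 and 5.76 CPM in YAP1-TFE3 tumours, against 79.0, 10.4 and 108 CPM in YAP1-FAM118B tumours.

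Genes of antigen presentation by MHC class I rose, in 12 of 17 cases with none lower in edgeR's test (median 1.54). Mean log2 CPM of the list was 6.89, 6.96 and 8.43 in YAP1-TFE3 tumours, 6.40, 6.06 and 5.72 in YAP1-FAM118B tumours and 3.14 to 3.32 in naive cortex. H2-K1 had 1113, 1168 and 2861 CPM in YAP1-TFE3 tumours, against 405, 298 and 237 CPM in YAP1-FAM118B tumours (2.45 ± 0.50, edgeR adjusted p = 0.00286, and 1.86 without YAP1-TFE3 replicate 3). Tapbp, which loads peptide onto class I, had 406, 368 and 658 CPM in YAP1-TFE3 tumours, against 127, 88.0 and 92.6 CPM in YAP1-FAM118B tumours (2.22 ± 0.31). With YAP1-FAM118B replicate 3 as the only library of its group 4 class I genes rose, and with the neuron and myelin term 0 did. Class II genes were not called in edgeR (0 of 11, median 0.60), with 5 lower without YAP1-TFE3 replicate 3. H2-Aa had 22.2, 55.0 and 1396 CPM in YAP1-TFE3 tumours, against 475, 161 and 406 CPM in YAP1-FAM118B tumours, so YAP1-TFE3 replicate 3 lay above and the other YAP1-TFE3 tumours below every YAP1-FAM118B tumour. T cell genes followed the same library. Their mean log2 CPM was -1.07, -0.98 and 1.88 in YAP1-TFE3 tumours and 0.59, -0.19 and -0.50 in YAP1-FAM118B tumours, and 1 of 24, Cd4, was called, lower (-3.27 ± 0.94, and -5.11 without YAP1-TFE3 replicate 3). Cd4 is also made by macrophages. Jchain, the joining chain of secreted antibody, had 0.772, 1.24 and 74.4 CPM in YAP1-TFE3 tumours, against 0.493, 0.840 and 0.738 CPM in YAP1-FAM118B tumours. Its log2 fold change of 5.2 was 0.55 without YAP1-TFE3 replicate 3 (edgeR adjusted p = 0.615), and the call was also lost without any 1 of the YAP1-FAM118B libraries (5.0 to 5.36).

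Interferon-stimulated genes rose in 8 of 29 cases, near the 28% of all genes, with none lower in edgeR's test (median 0.90). Bst2, tetherin, had 913, 732 and 1009 CPM in YAP1-TFE3 tumours, against 80.9, 67.8 and 46.9 CPM in YAP1-FAM118B tumours (3.76 ± 0.38, edgeR adjusted p = 6.12e-05). Ifit3 had 520.0, 432 and 960 CPM in YAP1-TFE3 tumours, against 36.4, 38.2 and 10.7 CPM in YAP1-FAM118B tumours (4.49 ± 0.62). Chemokines and receptors were called in 6 of 34 cases, 2 higher and 4 lower, and complement genes in 2 of 20, 1 each way. Without YAP1-TFE3 replicate 3, 7 complement genes were lower and 0 higher. Chemokine genes higher numbered 5 without YAP1-TFE3 replicate 1 or 2. Cxcl14 fell by 2.55 ± 0.37. The complement inhibitor Cd59a rose by 1.35 ± 0.41 and the protease C1s1 fell by 1.89 ± 0.59. Cd59a lost its call without YAP1-FAM118B replicate 1 (1.27), YAP1-FAM118B replicate 2 (1.16) or YAP1-TFE3 replicate 3 (0.97), and C1s1 without YAP1-FAM118B replicate 1 (-1.10) or YAP1-TFE3 replicate 2 (-1.60).

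Neural genes were lower in YAP1-TFE3 tumours almost throughout. Of 40 synaptic and neuron genes 38 fell and none rose in edgeR's test, with a median of -3.88. That count was 27 to 39 when 1 library was left out, 9 with YAP1-FAM118B replicate 3 as the only library of its group and 0 with the neuron and myelin term, which these genes themselves made. Map2, the dendritic microtubule protein, had 62.5, 127 and 59.95 CPM in YAP1-TFE3 tumours, against 350.3, 565 and 251 CPM in YAP1-FAM118B tumours and a naive mean of 786 CPM (-2.22 ± 0.35, edgeR adjusted p = 0.000646). Snap25, of the synaptic release machinery, had 8.34, 200.2 and 9.06 CPM in YAP1-TFE3 tumours, against 1422, 1723 and 1318 CPM in YAP1-FAM118B tumours and a naive mean of 2682 CPM (-4.36 ± 1.33, and -7.42 without YAP1-TFE3 replicate 2). YAP1-TFE3 replicate 2 held more neuron RNA than the other YAP1-TFE3 tumours but less than any YAP1-FAM118B tumour. Dlg4, Tubb3 and Kcna1 moved in the same way, by -2.95, -3.24 and -3.77, and by -3.68, -4.24 and -4.46 without YAP1-TFE3 replicate 2. Myelin genes fell in 13 of 15 cases and none rose in edgeR's test (median -2.76). Mal, a proteolipid of myelin, had 23.7, 14.5 and 5.43 CPM in YAP1-TFE3 tumours, against 194, 441 and 137 CPM in YAP1-FAM118B tumours and a naive mean of 552 CPM (-4.15 ± 0.66, and -3.51 without YAP1-FAM118B replicate 2). Both tumours lay below cortex for these genes, and YAP1-TFE3 tumours lay lower.

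Astrocyte genes did not move as one. Of 15, 7 fell and 3 rose (median -1.15). Slc1a2, the main glutamate transporter of astrocytes, had 87.8, 396 and 44.2 CPM in YAP1-TFE3 tumours, against 1631, 1870.0 and 1246 CPM in YAP1-FAM118B tumours (-3.17 ± 0.74). S100b had 557, 299 and 375 CPM in YAP1-TFE3 tumours, against 88.6, 93.1 and 50.3 CPM in YAP1-FAM118B tumours (2.41 ± 0.28, edgeR adjusted p = 0.000133). Sox9, a glial and chondrocyte factor, had 148, 118 and 76.2 CPM in YAP1-TFE3 tumours, against 19.1, 27.8 and 10.8 CPM in YAP1-FAM118B tumours (2.57 ± 0.45). S100b and Sox9 thus rose without overlap, while Gfap, at 164, 959 and 168 CPM in YAP1-TFE3 tumours, against 893, 884 and 71.0 CPM in YAP1-FAM118B tumours, overlapped. Neural stem and progenitor genes split evenly, with 5 of 19 higher and 5 lower (median 0.45), and 3 lower without YAP1-FAM118B replicate 2. The 52.6% called in either direction was near the 51.7% of all genes. Prom1, the stem cell surface protein CD133, had 319, 320.0 and 264 CPM in YAP1-TFE3 tumours, against 11.3, 18.5 and 9.60 CPM in YAP1-FAM118B tumours (4.52 ± 0.52, edgeR adjusted p = 0.000125). Nr2e1, the orphan receptor TLX, had 255, 242 and 129 CPM in YAP1-TFE3 tumours, against 9.12, 10.5 and 5.68 CPM in YAP1-FAM118B tumours (4.63 ± 0.60). Sox2 rose by 2.08 ± 0.33. Nes, the intermediate filament nestin, went the other way, with 69.9, 58.7 and 66.3 CPM in YAP1-TFE3 tumours, against 196, 185 and 206 CPM in YAP1-FAM118B tumours (-1.59 ± 0.17). The oligodendrocyte precursor list had 1 gene higher and 4 lower of 12. The gene that rose was Matn4, a matrilin, with 816, 801 and 389 CPM in YAP1-TFE3 tumours, against 11.1, 23.9 and 5.54 CPM in YAP1-FAM118B tumours (5.63 ± 0.68, and 6.33 without YAP1-FAM118B replicate 2). Motile cilia genes were called in 5 of 26 cases, 2 higher and 3 lower, and 4 were higher without YAP1-TFE3 replicate 3. Foxj1, the master factor of motile cilia, had 231, 178 and 99.1 CPM in YAP1-TFE3 tumours, against 4.64, 9.70 and 5.49 CPM in YAP1-FAM118B tumours (4.68 ± 0.59, edgeR adjusted p = 0.000198), and Rfx2 rose by 1.66 ± 0.27. The structural genes Spag6l and Tekt1 fell (-3.96 ± 0.95, and -5.15 without YAP1-TFE3 replicate 2, for Spag6l, and -2.17 ± 0.62 for Tekt1). These genes do not stand for the list, as 21 of its 26 members were not called. Ttr, made by choroid plexus, had 947, 215 and 2.83 CPM in YAP1-TFE3 tumours, against 53.4, 96.9 and 83.8 CPM in YAP1-FAM118B tumours, with overlap. Of 10 choroid plexus genes 1, Sostdc1, was called, lower (-2.07), and it lost the call in each of the 6 fits that left out 1 library (-2.42 to -1.64).

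Signalling lists held members that moved each way, with large differences in single genes, and the AP-1 and the TGF-beta and BMP lists had more members lower than higher. From 42.1% (WNT) to 64.5% (TGF-beta and BMP) of the members of these lists were called, against 51.7% of all genes. Among 20 AP-1 and immediate early genes, 3 rose and 8 fell (median -0.79). Fos had 16.5, 30.7 and 14.2 CPM in YAP1-TFE3 tumours, against 81.3, 60.04 and 87.4 CPM in YAP1-FAM118B tumours (-1.89 ± 0.33). Of the small MAF factors, Mafk had 344, 249.8 and 211 CPM in YAP1-TFE3 tumours, against 37.1, 24.5 and 41.4 CPM in YAP1-FAM118B tumours (2.97 ± 0.25, edgeR adjusted p = 2.45e-05), Maff rose by 3.34 ± 0.34, and Mafg did not pass the test (0.19 ± 0.13). Egr1, which neuronal activity induces, fell too (-2.01 ± 0.40). Of 38 WNT genes, 8 rose and 8 fell (median -0.41), and 4 rose without YAP1-FAM118B replicate 1 and 5 without YAP1-TFE3 replicate 1. The receptors Fzd6 and Fzd1 rose by 2.82 ± 0.25 and 1.81 ± 0.30 and Fzd3 fell by 1.46 ± 0.27. Fzd6 had 194, 313 and 259 CPM in YAP1-TFE3 tumours, against 28.3, 36.7 and 43.6 CPM in YAP1-FAM118B tumours. Of 31 TGF-beta and BMP genes, 6 rose and 14 fell (median -0.66). Gdf15, a stress-induced ligand, had 458, 296 and 246 CPM in YAP1-TFE3 tumours, against 10.1, 5.58 and 5.31 CPM in YAP1-FAM118B tumours (5.57 ± 0.74, edgeR adjusted p = 0.00027). Bmp7 had 192, 85.9 and 89.0 CPM in YAP1-TFE3 tumours, against 11.4, 15.2 and 4.75 CPM in YAP1-FAM118B tumours (3.55 ± 0.54), and Bmp4 had 10.4, 19.5 and 10.6 CPM in YAP1-TFE3 tumours, against 146, 93.3 and 194 CPM in YAP1-FAM118B tumours (-3.42 ± 0.65). Bmp7 and Bmp4 thus differed in direction, each without overlap. The antagonist follistatin, Fst, fell by 4.84 ± 0.60, as Nog did.

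Notch genes gave 4 higher and 6 lower of 21. Notch2 had 287, 245 and 248 CPM in YAP1-TFE3 tumours, against 58.6, 34.3 and 68.0 CPM in YAP1-FAM118B tumours (2.28 ± 0.26, edgeR adjusted p = 0.000112), Notch1 rose by 1.14 ± 0.20 and the ligand Jag1 had 13.2, 18.4 and 9.10 CPM in YAP1-TFE3 tumours, against 127, 71.1 and 171 CPM in YAP1-FAM118B tumours (-3.18 ± 0.41). Another receptor, Notch3, fell like Jag1, with 13.8, 14.2 and 18.7 CPM in YAP1-TFE3 tumours, against 43.0, 26.3 and 71.9 CPM in YAP1-FAM118B tumours (-1.59 ± 0.34), so the receptors did not share a direction. Growth factors and receptors gave 7 higher and 9 lower of 34 (median -0.26). Hbegf, an EGF receptor ligand, had 346, 166 and 602 CPM in YAP1-TFE3 tumours, against 51.8, 52.2 and 36.4 CPM in YAP1-FAM118B tumours (2.99 ± 0.39, edgeR adjusted p = 0.000244). Igfbp3, which binds insulin-like growth factors and is also on the YAP target list, rose by 2.11 ± 0.33 and Pdgfd fell by 2.82 ± 0.39. The epithelial cadherin Cdh1 had 22.8, 84.7 and 68.8 CPM in YAP1-TFE3 tumours, against 6.49, 5.79 and 4.57 CPM in YAP1-FAM118B tumours (3.39 ± 0.59).

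Calls were spread over the genome. The share of tested genes higher in YAP1-TFE3 tumours ran from 21.1% on chromosome 18 to 31.6% on chromosome 4, and the share lower from 20.5% on chromosome 17 to 28.9% on the X.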

How the data were processed

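Total RNA was sequenced from 12 samples, and 1 table of whole-number gene counts per sample was deposited. Per the submitters' processing notes the authors used HTSeq and the mouse build mm10; their versions, the aligner, annotation, strand setting and any read filter are not stated there, so overlapping genes may share reads. Of 24421 symbols, 24300 matched a RefSeq table of GRCm38.p6, used for names, coordinates and promoters; 4096 had no count.

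Genes were filtered with edgeR's filterByExpr (minimum count 10), scaled by TMM and tested with edgeR 4.0.16's quasi-likelihood test (R 4.3.3) in a model of all 12 libraries and 4 groups, so that they share 1 estimate of spread; the contrast is YAP1-TFE3 minus YAP1-FAM118B, with Benjamini-Hochberg adjustment over 16364 genes at 0.05. CPM is the count over the TMM-scaled library size; log2 CPM uses a prior count of 2. Floors of 3 counts and 95% intervals cover counting error only. The script was tested on simulated data. Alternatives used DESeq2 1.42.0, other scalings and filters, left-out libraries, a replicate block, and a term for the mean neuron and myelin level. The edgeR package ran with limma 3.58.1. Tables and figures used Python 3.11.15, pandas 2.3.3, scipy 1.17.1 and matplotlib 3.10.9.

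The comparison, its gene lists and its tests were chosen with earlier results of these data known. Genes named were the fusion genes, per direction the 15 with the largest fold and the 15 with the smallest adjusted p among called genes whose groups do not overlap and whose mean is at least 5 CPM (predicted, X inactivation and Y genes left out), and, for each list, its 4 called members of smallest adjusted p plus 2 at most that went against its majority. Some genes that this rule names are not reported here. Any other gene named was chosen for its role after its values were seen.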

Additional observations from a re-analysis of the deposited data

How the results depend on the processing

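Against 8460 genes called (4582 higher, 3878 lower), the test for more than a 2-fold change called 3092 (1337 higher, 1755 lower). Without YAP1-FAM118B replicates 1 and 2, which leaves a lone library assumed to vary like the other groups, 4067 were called (2305 higher, 1762 lower). The fit of the tumours with neuron and myelin level as a covariate called 642 (523 higher, 119 lower). With that covariate the members higher numbered 5 for glycolysis and glucose uptake, 4 for cholesterol synthesis and uptake, 2 each for G1 genes, autophagy and activated microglia and 1 for interferon-stimulated genes. Members lower numbered 4 for other matrix proteins, 2 for TGF-beta and BMP genes, 1 each for osteoclast and fibroblast genes and 0 for AP-1 genes. Myelin genes also had 0 lower, but they helped make the covariate, so that count is no check. DESeq2 called 9239 and the 6 compared libraries alone 6665. Leaving out 1 library gave 6985 to 8240 calls in all, 3717 to 4569 higher and 3138 to 3694 lower. Deviations of same-numbered replicates from their group means correlated at -0.0013, 0.248 and 0.0613, and those of other pairs at -0.193 to 0.158. With so few libraries a group, these values cannot show whether the numbers pair libraries. A replicate block gave 8222 calls, 4394 higher and 3828 lower.

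Over the genes named by rule and all alternatives, 4144 values kept their direction and side of the threshold, 328 kept their direction only and 10 turned. Most of these genes were chosen from the same data for a small p or a large fold, which favours such agreement. The neuron and myelin covariate changed most: 97 of 247 genes kept both, 145 kept their direction only and 5 turned. Fam118b, not called, turned to -0.027 with library size only, -0.095 under TMM with naive replicate 1 as reference (an alternative chosen after seeing the data), -0.020 without YAP1-FAM118B replicate 2, -0.038 without YAP1-TFE3 replicate 1 and -0.21 without YAP1-FAM118B replicates 1 and 2; leaving out 1 library gave -0.038 to 0.43. With the covariate, Mamld1 turned to 0.88, Esrrg to 0.19, Slco1a4 to 0.25, Jchain to -1.26 and Cd79a to -0.35. The cause was not tested. Genes under about 1 CPM rest on few counts, which limits their folds. Construct, sex and brain tissue content are not balanced between the groups.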
